A study of Mus musculus with 9 samples.

Results

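Cadherins and protocadherins are transmembrane proteins of the cell surface whose extracellular repeats bind calcium and pair with like or related repeats on a neighbouring cell. Classical cadherins of types I and II hold cells together and anchor to actin through catenins, and different neurons of the developing brain carry different type II members. Protocadherins adhere more weakly, and the clustered ones (alpha, beta and gamma) are arranged in tandem on 1 chromosome and are chosen in different combinations by single neurons. In the cerebellum, granule neuron progenitors divide in an outer layer and then move inwards as they mature, and the Hedgehog pathway, which Ptch1 and Sufu restrain, drives their division.

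The genes described here are 62 mouse cadherins and protocadherins of 19938 genes that had a probe set of their own. They were picked out by symbol, namely Cdh with a number, Cdhr with a number, Pcdh with a number, and the clustered Pcdha, Pcdhb and Pcdhg genes. The family was chosen with earlier results of these data known. Where a gene had several probe sets, the one with the highest mean over the 9 arrays stood for it. The members fell into 5 type I cadherins, 13 type II cadherins, 10 other cadherins, 4 delta-1 and 5 delta-2 protocadherins, 3 other nonclustered protocadherins and 22 clustered beta protocadherins. No gamma gene met the rule, and the alpha cluster was met only by 1 probe set shared by 14 alpha symbols, which is described separately. Of the members 57 were tested, 56 of them above their array's 25th percentile on all 9 arrays and Pcdhb9 on 8. Cdh9, Cdh17, Cdh19, Cdhr1 and Cdhr2 lay below it on all 9 arrays and were not tested.

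Total RNA was measured at postnatal day 13 in 3 groups of 3 samples, each on its own Affymetrix Mouse Gene 1.0 ST array. The groups were medulloblastoma, a cerebellar tumour, labelled Ptch1KO, cerebellum labelled SufuKO and wildtype cerebellum. The labels name no strain, allele, Cre driver or pooling of animals, nor anything that all groups share. Whether the samples of 1 group are different animals is not stated either, and every p-value therefore rests on a spread that could be technical in part. All values are log2 expression values, and "called" means an adjusted p below 0.05 in a limma fit over 16323 genes.

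Sufu averaged 9.88 ± 0.06 in the Ptch1KO tumours, 8.07 ± 0.07 in SufuKO cerebella and 8.96 ± 0.12 in wildtype cerebella (SD, n = 3 each), and the difference of -0.89 ± 0.08 (SE) in SufuKO against wildtype was called (limma adjusted p = 9.70e-06). Ptch1 averaged 11.28 ± 0.14, 10.20 ± 0.05 and 10.26 ± 0.01 in the same order, and since the deleted part of Ptch1 is not given, this level does not check the Ptch1KO label. Xist, the RNA of the inactive X chromosome, was high on 1 Ptch1KO, 1 SufuKO and 3 wildtype arrays, so sex was not balanced between the groups. Of the markers of granule neuron progenitors 6 of 6 were called higher in Ptch1KO and 5 of 6 in SufuKO against wildtype. The progenitor marker not called in SufuKO was Gli1, at -0.12 ± 0.12 (SE, limma adjusted p = 0.537), against 1.81 ± 0.12 in Ptch1KO. Of the markers of mature granule neurons 6 of 7 were called lower in each mutant. Over all genes tested 46.8% were called in Ptch1KO and 25.4% in SufuKO against wildtype. The summed linear level of the mature granule neuron markers was 7610 to 10700 in Ptch1KO tumours, 14700 to 16200 in SufuKO cerebella and 22300 to 24400 in wildtype cerebella. All tested markers of Purkinje cells (4) and oligodendrocytes (4) were called lower in the tumours and in SufuKO. Of the markers of endothelium 6 of 6 were lower in the tumours and 4 of 6 in SufuKO, of GABAergic interneurons 5 of 5 and 4 of 5, of Bergmann glia and astrocytes 5 of 6 and 6 of 6, and of meningeal fibroblasts 2 of 6 (with 1 higher) and 5 of 6. Microglia markers were called higher for 3 of 5 in the tumours and 1 of 5 in SufuKO, with summed levels of 1050 to 1220 in Ptch1KO tumours, 804 to 918 in SufuKO cerebella and 719 to 745 in wildtype cerebella. Those of choroid plexus were higher for 2 of 5 in the tumours and 3 of 5 in SufuKO, with sums of 1690 to 2960, 934 to 4640 and 746 to 1920 in the same order of groups. None of these defining markers was at 0, which a log2 array value does not reach.

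In the Ptch1KO tumours most of the family was lower than in wildtype cerebellum, and a few members were much higher. Against wildtype 5 members were called higher and 30 lower, where 46.8% of all 16323 genes tested were called, 22.1% higher and 24.7% lower. The 35 called members make 61.4% of the 57 tested. The median difference of the tested members was -0.25, against -0.01 for all genes tested. Without the beta cluster, 5 of 35 tested members were higher and 14 lower, with a median of -0.11. Differences of at least 1 log2 unit were called for 7 members (Pcdh18, Cdh20, Cdh22, Cdh12, Cdh18, Cdh7 and Pcdh9), where 7.46% of all genes tested had one. All tumour arrays lay above all wildtype arrays for 6 of the 57 members and below them for 31, where 26.4% and 30.2% of all genes tested did. These were bulk tissues, in which fewer cells of a type and less RNA per cell cannot be told apart.

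The largest increases belonged to a protocadherin and a type II cadherin, neither of which was called in SufuKO against wildtype. Pcdh18, a delta-2 protocadherin, read 8.38, 8.39 and 8.06 in the Ptch1KO tumours, 6.93, 7.003 and 7.35 in SufuKO cerebella and 6.76, 6.99 and 6.45 in wildtype cerebella. All 3 tumours lay above all 6 cerebella, whose SufuKO and wildtype values overlapped. Its difference was 1.54 ± 0.14 (SE) in Ptch1KO against wildtype, 2.91-fold (limma adjusted p = 2.45e-06), and 1.18 ± 0.14 against SufuKO (adjusted p = 9.33e-05). Cdh20, a type II cadherin, read 9.51, 9.67 and 9.15 in the Ptch1KO tumours, 8.06, 8.10 and 8.17 in SufuKO cerebella and 7.97, 8.07 and 8.03 in wildtype cerebella. Its tumours again stood clear of all cerebella, and the SufuKO and wildtype arrays overlapped within a narrow band. The difference was 1.42 ± 0.11 against wildtype, 2.68-fold (adjusted p = 5.12e-07), and 1.33 ± 0.11 against SufuKO (adjusted p = 7.76e-06). In SufuKO against wildtype the differences of Pcdh18 and Cdh20 were 0.36 ± 0.14 (adjusted p = 0.0905) and 0.09 ± 0.11 (adjusted p = 0.624), and that of Pcdh18 was called without wildtype replicate 2 (0.49, adjusted p = 0.0399) and with a covariate for high Xist (0.55, adjusted p = 0.0236).

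The promoters of these 2 genes and of the 2 members with the largest decreases in the tumours, Cdh22 and Cdh12, are shown because they belong to the extremes of the family in both directions. Each line gives 300 bases of the gene's strand from RefSeq, assembly GRCm38.p6, 250 before the annotated start and 50 after it. Capitals mark matches of CANNTG, the E-box, a motif that reads the same on both strands. The windows are chr3:49757267-49757566 (minus strand) for Pcdh18, chr1:104768270-104768569 (plus) for Cdh20, chr2:165234688-165234987 (minus) for Cdh22 and chr15:21111202-21111501 (plus) for Cdh12.
Pcdh18: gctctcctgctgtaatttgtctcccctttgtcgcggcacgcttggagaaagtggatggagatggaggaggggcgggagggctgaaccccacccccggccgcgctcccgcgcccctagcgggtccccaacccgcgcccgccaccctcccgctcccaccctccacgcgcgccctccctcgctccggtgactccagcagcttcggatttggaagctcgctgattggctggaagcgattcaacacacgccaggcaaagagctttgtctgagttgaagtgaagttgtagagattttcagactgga
Cdh20: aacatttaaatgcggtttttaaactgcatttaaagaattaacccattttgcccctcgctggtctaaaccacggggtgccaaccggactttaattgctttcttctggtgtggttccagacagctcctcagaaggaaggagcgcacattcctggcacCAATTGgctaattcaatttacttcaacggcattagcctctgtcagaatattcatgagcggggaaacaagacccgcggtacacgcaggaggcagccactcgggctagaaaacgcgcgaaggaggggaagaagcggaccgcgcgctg
Cdh22: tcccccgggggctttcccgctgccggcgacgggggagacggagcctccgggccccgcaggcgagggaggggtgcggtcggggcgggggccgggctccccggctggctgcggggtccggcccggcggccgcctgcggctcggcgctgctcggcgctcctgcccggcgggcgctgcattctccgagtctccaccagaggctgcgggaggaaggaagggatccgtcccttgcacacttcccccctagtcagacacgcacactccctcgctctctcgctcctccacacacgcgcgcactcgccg
Cdh12: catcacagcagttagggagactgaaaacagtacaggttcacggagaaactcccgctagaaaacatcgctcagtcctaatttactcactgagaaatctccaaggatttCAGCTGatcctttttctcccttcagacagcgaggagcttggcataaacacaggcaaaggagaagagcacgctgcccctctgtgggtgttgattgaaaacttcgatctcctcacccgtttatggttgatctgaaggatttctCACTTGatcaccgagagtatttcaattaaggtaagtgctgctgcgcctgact
The Cdh20 window held 1 E-box and the Cdh12 window 2, and those of Pcdh18 and Cdh22 held 0. RefSeq promoters were used for 27 of the 62 members, with 30 promoters, and those of the other members were not used here. None of the clustered beta protocadherins was among the 27, nor were Cdh2, Pcdh1 and Pcdh12. The shares below therefore do not describe the whole family, only these 30 promoters. Of these 30, 20 held CANNTG (66.7%), against 72.3% of all 32851 promoters of the same length, and 2 held TATAAA (6.67%), against 13.6%. GACCACCCA, the consensus of the Gli factors, was searched on both strands and was in 0 of the 30 and in 0.253% of all promoters. The median GC content was 56.5% in these 30 promoters and 52.67% in all promoters, and that of the Cdh22 window was 76.3%. A match is a string of letters in this window and was not tied to binding here.

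**Figure D1:**
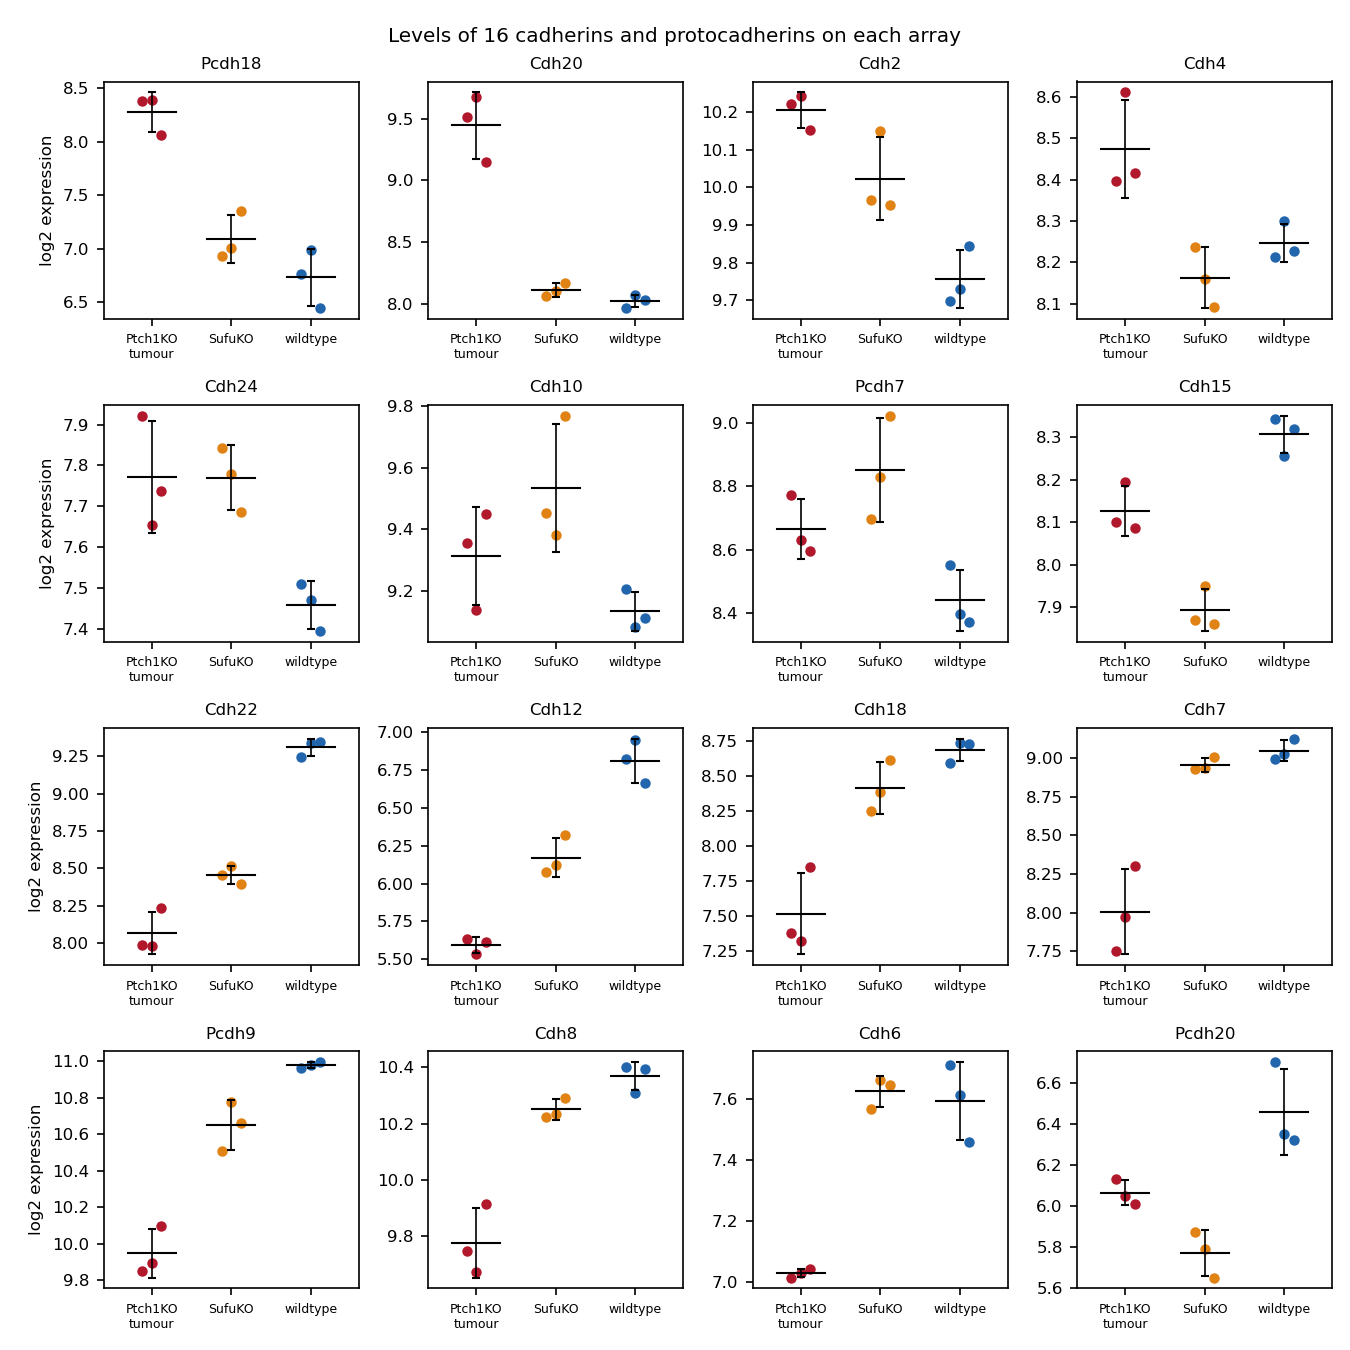
Log2 expression (y axis) of 16 cadherins and protocadherins on each array, with 1 point per array, a horizontal line at the group mean and bars of 1 SD (n = 3), for Ptch1KO tumours, SufuKO cerebella and wildtype cerebella. Each panel has its own range of values. Pcdh18 and Cdh20 stand apart in the tumours, whereas Cdh22 and Cdh12 take an intermediate level in SufuKO cerebella.

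Among the type I cadherins, all 5 were called in the tumours against wildtype, in opposite directions, where 46.8% of all genes tested were called. Cdh2, the N-cadherin of neural tissue, read 10.22, 10.24 and 10.15 in the Ptch1KO tumours, 9.97, 10.15 and 9.95 in SufuKO cerebella and 9.70, 9.73 and 9.84 in wildtype cerebella. Tumours were highest, and neither mutant overlapped wildtype. Its difference was 0.45 ± 0.07 in Ptch1KO against wildtype (adjusted p = 0.000278), 0.27 ± 0.07 in SufuKO against wildtype (adjusted p = 0.02) and 0.18 ± 0.07 in Ptch1KO against SufuKO (adjusted p = 0.0882). The call in SufuKO was lost with a covariate for high Xist (adjusted p = 0.0713), without wildtype replicate 1 (0.0787) or 2 (0.0693), and without SufuKO replicate 2 (0.0992). Cdh4, the R-cadherin first described in retina, read 8.40, 8.61 and 8.42 in the Ptch1KO tumours, 8.24, 8.16 and 8.09 in SufuKO cerebella and 8.21, 8.30 and 8.23 in wildtype cerebella. It was high in the tumours alone, 0.23 ± 0.08 above wildtype (adjusted p = 0.025) and 0.31 ± 0.08 above SufuKO (adjusted p = 0.00742). The call against wildtype was lost without Ptch1KO replicate 2 (0.16, adjusted p = 0.121) and without wildtype replicate 1 (adjusted p = 0.0796) or 3 (0.0683).

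Cdh15, the M-cadherin named for muscle, read 8.10, 8.20 and 8.09 in the Ptch1KO tumours, 7.87, 7.95 and 7.86 in SufuKO cerebella and 8.34, 8.26 and 8.32 in wildtype cerebella. The 3 groups did not overlap, and SufuKO was lowest. Its difference was -0.42 ± 0.06 in SufuKO against wildtype (adjusted p = 0.000619), -0.18 ± 0.06 in Ptch1KO against wildtype (adjusted p = 0.0366) and 0.24 ± 0.06 in Ptch1KO against SufuKO (adjusted p = 0.015). The Ptch1KO call against wildtype was lost in 6 of the alternatives tried, among them the fits without wildtype replicate 1 or 3 and without Ptch1KO replicate 1 or 3, with adjusted p up to 0.121, and the call against SufuKO was lost without Ptch1KO replicate 2 (adjusted p = 0.0716). Cdh1, the E-cadherin of epithelia, averaged 6.50 ± 0.07 in Ptch1KO, 6.51 ± 0.12 in SufuKO and 6.79 ± 0.10 in wildtype (SD), and was called lower in Ptch1KO (-0.29, adjusted p = 0.0104) and in SufuKO (-0.28, adjusted p = 0.0229). Without wildtype replicate 1 neither call of Cdh1 passed, with adjusted p of 0.0508 in Ptch1KO and up to 0.0962 in SufuKO over the 4 fits that lost it, which also left out wildtype replicate 2 or SufuKO replicate 2 or 3. Cdh3, the P-cadherin of placenta and skin, was called lower in the tumours (-0.26, adjusted p = 0.0187), a call lost without wildtype replicate 2 or Ptch1KO replicate 2 (adjusted p up to 0.0918). Zeb1 and Zeb2, repressors of E-cadherin, were both called higher in the tumours against wildtype, by 1.09 ± 0.08 (adjusted p = 4.94e-07) and 0.30 ± 0.10 (adjusted p = 0.0228). In SufuKO against wildtype Zeb1 was called higher (0.49 ± 0.08, adjusted p = 0.00118) and Zeb2 lower (-0.50 ± 0.10, adjusted p = 0.0028). Snai1, Snai2 and Twist1 were called in neither.

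The type II cadherins held most of the large decreases. In Ptch1KO against wildtype 2 of 11 tested members were called higher and 7 lower, with a median difference of -0.56. There 46.8% of all genes tested were called, 22.1% higher and 24.7% lower. In Ptch1KO against SufuKO 1 of the 11 was higher and 6 lower, with a median of -0.39. Over all members, 5 were higher and 13 lower in Ptch1KO against SufuKO (31.6%, where 29.7% of all genes tested were called, 12.2% higher and 17.5% lower). Only Pcdh18 and Cdh20 had called differences of at least 1 log2 unit there, where 1.88% of all genes tested had one. All tumour arrays lay above all SufuKO arrays for 8 members and below them for 17, where 16.1% and 23.6% of all genes tested did. In SufuKO against wildtype 2 of the 11 were higher and 3 lower, with a median of -0.12. Over all members, 4 were higher and 12 lower in that comparison (28.1%, where 25.4% of all genes tested were called, 13% higher and 12.4% lower). The share of the family called in either direction thus lay near that of all genes, while its calls leaned to lower. Called differences of at least 1 log2 unit were found for 0 members in SufuKO, where 1.36% of all genes tested had one. All SufuKO arrays lay above all wildtype arrays for 5 members and below them for 21, where 21.3% and 19.6% of all genes tested did. The 3 comparisons share groups, so their values are given side by side.

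Cdh22, a cadherin of pituitary and brain, read 7.99, 7.98 and 8.23 in the Ptch1KO tumours, 8.46, 8.52 and 8.39 in SufuKO cerebella and 9.24, 9.34 and 9.34 in wildtype cerebella. No group overlapped another, with SufuKO between the tumours and wildtype. It fell by 1.24 on the log2 scale in Ptch1KO against wildtype (SE 0.08, adjusted p = 1.25e-07) and by 0.85 in SufuKO against wildtype (SE 0.08, adjusted p = 1.82e-05), and it was -0.39 ± 0.08 in Ptch1KO against SufuKO (adjusted p = 0.0028). Cdh12, a type II cadherin of the brain, read 5.63, 5.53 and 5.61 in the Ptch1KO tumours, 6.07, 6.12 and 6.32 in SufuKO cerebella and 6.82, 6.95 and 6.66 in wildtype cerebella. It had the same order of groups without overlap, and its tumour values lay just above the 25th percentile of their arrays (5.36 to 5.38). Its difference was -1.22 ± 0.09 in Ptch1KO against wildtype (adjusted p = 3.17e-07), -0.64 ± 0.09 in SufuKO against wildtype (adjusted p = 0.000275) and -0.58 ± 0.09 in Ptch1KO against SufuKO (adjusted p = 0.000374). Each of these 6 calls of Cdh22 and Cdh12 was kept in every alternative in which the gene was tested.

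In 4 other type II genes the tumours were low and the SufuKO level was not called against wildtype. Cdh18 read 7.38, 7.32 and 7.85 in the Ptch1KO tumours, 8.25, 8.39 and 8.61 in SufuKO cerebella and 8.59, 8.73 and 8.73 in wildtype cerebella. Tumours lay below all cerebella, SufuKO and wildtype arrays overlapped, and tumour replicate 3 was the highest of its group. Its difference was -1.17 ± 0.13 against wildtype (adjusted p = 1.16e-05) and -0.90 ± 0.13 against SufuKO (adjusted p = 0.000292), and a second, dimmer probe set was also called lower, at -0.80 against wildtype and -0.56 against SufuKO. Cdh7 read 7.75, 7.97 and 8.30 in the Ptch1KO tumours, 8.93, 8.94 and 9.01 in SufuKO cerebella and 8.99, 9.02 and 9.12 in wildtype cerebella. The spread among tumours (SD 0.28) exceeded that among SufuKO (0.04) and wildtype arrays (0.07), and tumour replicate 3 was again nearest to the cerebella. Its difference was -1.04 ± 0.11 against wildtype (adjusted p = 7.86e-06) and -0.95 ± 0.11 against SufuKO (adjusted p = 7.43e-05). Cdh8 and Cdh6 were also low in the tumours. Cdh8 differed by -0.59 ± 0.07 against wildtype (limma adjusted p = 2.71e-05) and by -0.47 ± 0.07 against SufuKO (adjusted p = 0.000437). Its SufuKO arrays (10.22 to 10.29) all lay below its wildtype arrays (10.31 to 10.40), though that difference was not called. Cdh6 read 7.02, 7.03 and 7.04 in the Ptch1KO tumours, 7.57, 7.66 and 7.65 in SufuKO cerebella and 7.71, 7.61 and 7.46 in wildtype cerebella, so the tumours were close together and below every cerebellum. It differed by -0.56 ± 0.07 against wildtype (adjusted p = 3.78e-05) and by -0.60 ± 0.07 against SufuKO (adjusted p = 9.56e-05). In SufuKO against wildtype the 4 genes differed by -0.27 ± 0.13, -0.09 ± 0.11, -0.12 ± 0.07 and 0.03 ± 0.07 (SE, in the order Cdh18, Cdh7, Cdh8, Cdh6), with adjusted p of 0.167, 0.629, 0.291 and 0.824, and that of Cdh18 was called without Ptch1KO replicate 3 (adjusted p = 0.0487).

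The remaining type II members differed in other ways. Cdh10 read 9.35, 9.14 and 9.45 in the Ptch1KO tumours, 9.45, 9.38 and 9.77 in SufuKO cerebella and 9.20, 9.08 and 9.11 in wildtype cerebella. SufuKO stood above wildtype without overlap, by 0.40 ± 0.11 (adjusted p = 0.0156), and this call was lost without wildtype replicate 2 (0.38, adjusted p = 0.0588), while the tumours overlapped both groups. Cdh24 read 7.92, 7.65 and 7.74 in the Ptch1KO tumours, 7.84, 7.78 and 7.69 in SufuKO cerebella and 7.51, 7.47 and 7.40 in wildtype cerebella, so both mutants lay above wildtype. It was called higher in Ptch1KO (0.31 ± 0.08, adjusted p = 0.0063) and in SufuKO (0.31 ± 0.08, adjusted p = 0.0135) against wildtype. A dimmer probe set of Cdh24 did not show this, at -0.04 in Ptch1KO (adjusted p = 0.748) and -0.05 in SufuKO (adjusted p = 0.793) against wildtype. With the mean of both probe sets the calls were lost (0.13 in each, adjusted p = 0.197 in Ptch1KO and 0.262 in SufuKO), as they were with a covariate for high Xist (adjusted p = 0.0649 and 0.0994), and the SufuKO call was also lost without wildtype replicate 3 (0.0552). Cdh11, known from bone, was called lower in SufuKO against wildtype (-0.27, adjusted p = 0.00817) and lost this call with a covariate for high Xist (adjusted p = 0.055), and its difference in the tumours was -0.13 ± 0.06 (adjusted p = 0.107).

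Cdh5, the VE-cadherin of endothelium, read 7.76, 7.74 and 7.48 in the Ptch1KO tumours, 7.65, 7.70 and 7.88 in SufuKO cerebella and 7.91, 7.94 and 8.05 in wildtype cerebella. Its difference was -0.31 ± 0.09 in Ptch1KO against wildtype (adjusted p = 0.0134) and -0.23 ± 0.09 in SufuKO against wildtype (adjusted p = 0.0921), and the Ptch1KO call was lost without wildtype replicate 3, without Ptch1KO replicate 3 and with a covariate for high Xist (adjusted p up to 0.118). Beside it, the other endothelial markers summed to linear levels of 1100 to 1160 in Ptch1KO tumours, 1150 to 1240 in SufuKO cerebella and 1370 to 1550 in wildtype cerebella, and their part in the Cdh5 result was not tested. Pcdh12, a protocadherin of endothelium, differed by 0.02 ± 0.08 in Ptch1KO against wildtype (adjusted p = 0.91).

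The type II genes also differed from each other within a stretch of 1 chromosome. In the order of the RefSeq gene table, Cdh6, Cdh9, Cdh10, Cdh12 and Cdh18 follow each other on chromosome 15, with Acot10 between Cdh12 and Cdh18. Of these neighbours Cdh6, Cdh12 and Cdh18 were called lower in the tumours, Cdh10 was not called (0.18 ± 0.11, adjusted p = 0.198) and Cdh9 was not tested. Cdh20 and Cdh7, which lie on chromosome 1, differed in opposite directions.

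Of the 7 other cadherins tested, only Cdh23 was called against wildtype. Over all genes tested 46.8% were called in Ptch1KO and 25.4% in SufuKO. Cdh23 encodes a protein of the tip links of inner ear hair cells, and it was lower in Ptch1KO (-0.35 ± 0.07, adjusted p = 0.00162) and in SufuKO (-0.25 ± 0.07, adjusted p = 0.0222), the SufuKO call being lost without wildtype replicate 1 or 2 or SufuKO replicate 2 or 3 (adjusted p up to 0.0888). Cdh13, the T-cadherin that a lipid anchor holds in the membrane, read 8.17, 8.25 and 8.36 in the Ptch1KO tumours, 8.30, 8.46 and 8.30 in SufuKO cerebella and 8.26, 8.09 and 8.19 in wildtype cerebella. SufuKO lay above wildtype without overlap, yet the difference of 0.18 ± 0.08 was not called (adjusted p = 0.124). Cdh16, Cdh26, Cdhr3, Cdhr4 and Cdhr5, most of them known from epithelia, were called in none of the 3 comparisons, and their differences lay between -0.14 and 0.04.

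**Figure D2:**
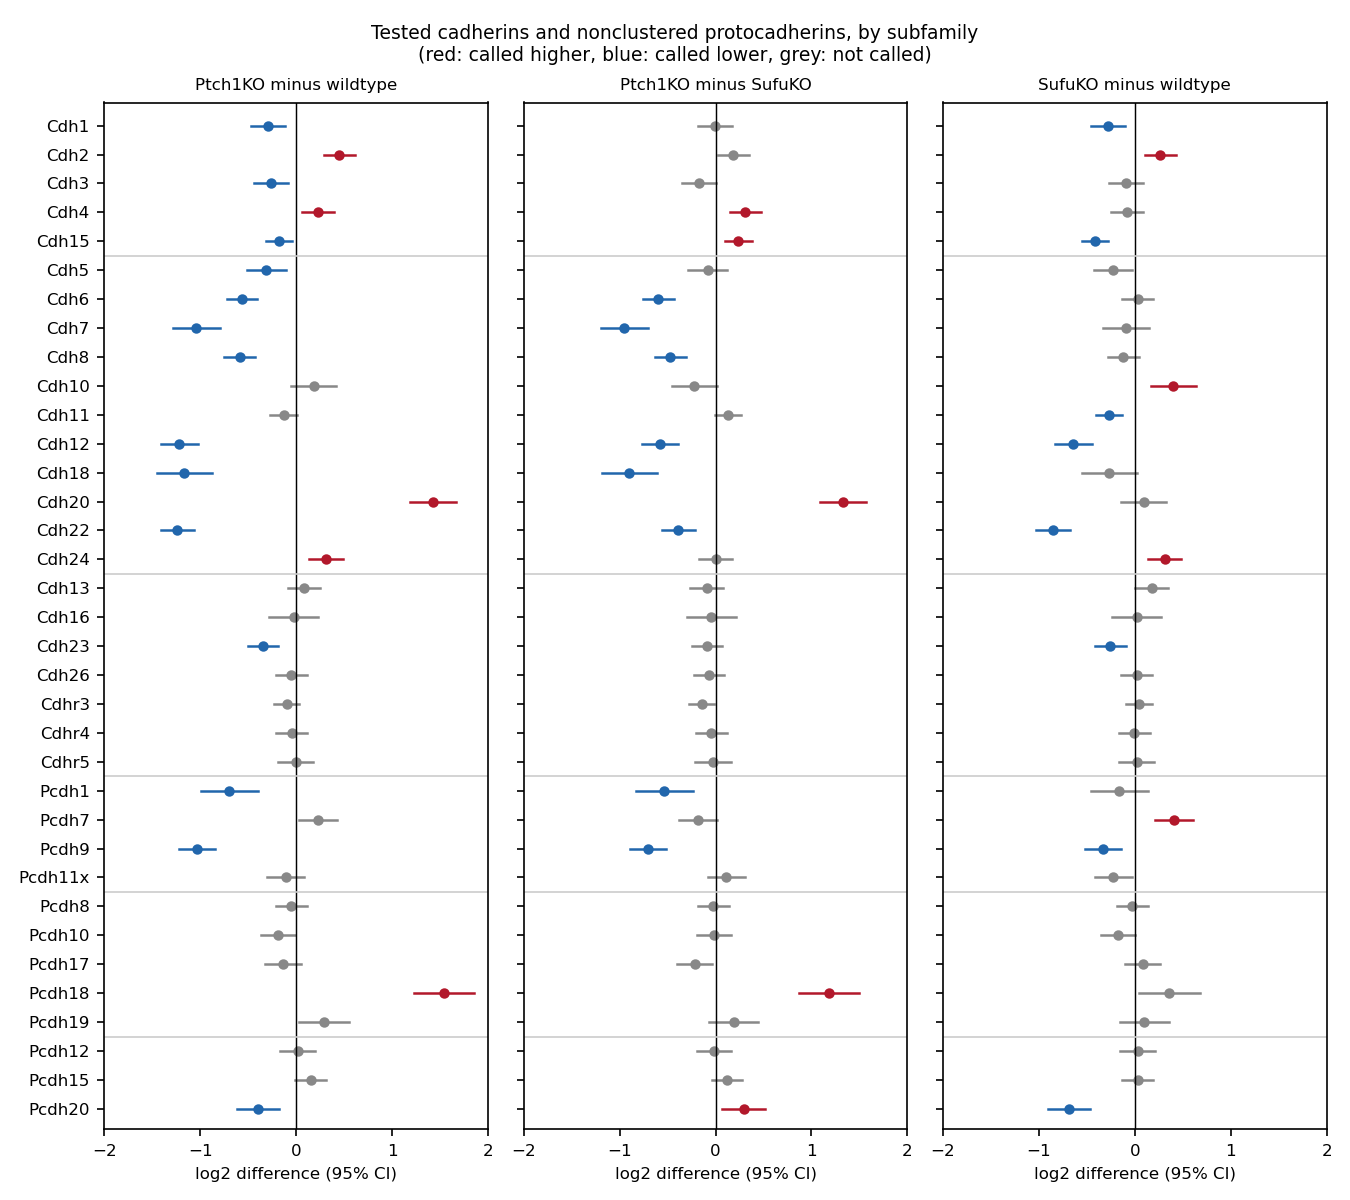
Log2 differences (x axis) with 95% confidence intervals for the 35 tested cadherins and nonclustered protocadherins, in Ptch1KO minus wildtype, Ptch1KO minus SufuKO and SufuKO minus wildtype. Grey lines part the subfamilies, and colour marks members called higher (red), called lower (blue) or not called (grey). The type II block, from Cdh5 to Cdh24, holds 4 of the 5 decreases of at least 1 log2 unit in Ptch1KO against wildtype.

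Among the delta-1 protocadherins, Pcdh9 and Pcdh1 were called lower in the tumours against both other groups. Pcdh9 read 9.85, 9.90 and 10.10 in the Ptch1KO tumours, 10.51, 10.78 and 10.66 in SufuKO cerebella and 10.96, 10.98 and 11.00 in wildtype cerebella. The wildtype arrays were nearly level, SufuKO lay below them and the tumours below both. Its difference was -1.03 ± 0.09 in Ptch1KO against wildtype (adjusted p = 9.27e-07), -0.33 ± 0.09 in SufuKO against wildtype (adjusted p = 0.0139) and -0.70 ± 0.09 in Ptch1KO against SufuKO (adjusted p = 9.29e-05). A second probe set gave -1.07, -0.39 and -0.68 in the same comparisons. The SufuKO call was lost without SufuKO replicate 1 (-0.26, adjusted p = 0.0516). Pcdh1 read 5.45, 5.56 and 5.88 in the Ptch1KO tumours, 5.85, 6.26 and 6.38 in SufuKO cerebella and 6.31, 6.25 and 6.42 in wildtype cerebella. Tumours lay below wildtype, while 1 tumour overlapped the SufuKO range. It differed by -0.70 ± 0.14 against wildtype (adjusted p = 0.000954) and by -0.53 ± 0.14 against SufuKO (adjusted p = 0.00998), and the second of these was lost without Ptch1KO replicate 1 (-0.44, adjusted p = 0.0508). Pcdh7 read 8.77, 8.63 and 8.59 in the Ptch1KO tumours, 8.70, 8.83 and 9.02 in SufuKO cerebella and 8.55, 8.40 and 8.37 in wildtype cerebella. Both mutants lay above wildtype, and the difference was 0.41 ± 0.09 in SufuKO (adjusted p = 0.0058) and 0.23 ± 0.09 in Ptch1KO (adjusted p = 0.0613), the Ptch1KO difference being called in 8 alternatives, among them quantile normalization (adjusted p = 0.0285) and leaving out wildtype replicate 1 (0.0436), SufuKO replicate 1 (0.0397) or SufuKO replicate 3 (0.0306). Pcdh11x was called in none of the 3 comparisons, with -0.11 ± 0.09 in Ptch1KO and -0.22 ± 0.09 in SufuKO against wildtype.

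Of the delta-2 protocadherins, Pcdh18 was the only one called with all 9 arrays in the model used throughout. Pcdh10 differed by -0.19 ± 0.08 in Ptch1KO against wildtype (adjusted p = 0.0682), and Pcdh19, an X-linked gene whose mutation causes epilepsy in humans, by 0.29 ± 0.12 (adjusted p = 0.0622). Pcdh17 and Pcdh8 differed by -0.14 ± 0.08 and -0.05 ± 0.07. Pcdh19 was called in 5 alternatives, namely without wildtype replicate 2 (0.40, adjusted p = 0.0149), without SufuKO replicate 1 (0.0364) or 3 (0.0467), with only the 6 arrays compared (0.0445) and with a covariate for high Xist (0.0399), and Pcdh10 was called without Ptch1KO replicate 3 (-0.27, adjusted p = 0.013). Pcdh17 was called in Ptch1KO against SufuKO without wildtype replicate 3 (-0.22, adjusted p = 0.0468). Pcdh20, grouped here with the other nonclustered protocadherins, read 6.13, 6.05 and 6.01 in the Ptch1KO tumours, 5.87, 5.79 and 5.65 in SufuKO cerebella and 6.70, 6.35 and 6.32 in wildtype cerebella. Groups did not overlap, and SufuKO was the lowest. It differed by -0.69 ± 0.10 in SufuKO against wildtype (adjusted p = 0.000416) and by -0.39 ± 0.10 in Ptch1KO against wildtype (adjusted p = 0.00595). The difference of 0.29 ± 0.10 in Ptch1KO against SufuKO was called (adjusted p = 0.046), but not without a filter on dim genes (adjusted p = 0.0526), nor without wildtype replicate 2 or any 1 of the SufuKO and Ptch1KO arrays other than SufuKO replicate 1 (adjusted p 0.0513 to 0.147).

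Pcdh15, the partner of Cdh23 in the tip link, gave different answers on its 2 probe sets. The brighter probe set, which stands for the gene here, read 6.83, 6.66 and 6.75 in the Ptch1KO tumours, 6.61, 6.58 and 6.69 in SufuKO cerebella and 6.58, 6.69 and 6.52 in wildtype cerebella. These groups overlapped, and the difference was 0.15 ± 0.07 in Ptch1KO against wildtype (adjusted p = 0.119). The dimmer one read 6.99, 7.28 and 6.83 in the Ptch1KO tumours, 6.003, 6.35 and 6.14 in SufuKO cerebella and 6.18, 6.13 and 6.23 in wildtype cerebella. On it all 3 tumours lay above all cerebella, with a difference of 0.85 ± 0.11 (SE) against wildtype (adjusted p = 6.90e-05) and 0.87 ± 0.11 against SufuKO (adjusted p = 0.00021) in the same model over 21789 probe sets. The annotation ties the dimmer probe set to RefSeq transcripts of Pcdh15 and the brighter one to cDNA clones only, and which of them reports the gene was not tested.

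Most of the beta protocadherins were called lower in the tumours, and few in SufuKO. In Ptch1KO against wildtype 16 of 22 were called lower and 0 higher, 72.7% of the cluster, where 24.7% of all genes tested were called lower and 46.8% in either direction, and the median difference was -0.31. All arrays of the tumours lay below all of wildtype for 15 of the 22, where 30.2% of all genes tested did. In SufuKO against wildtype 4 were called lower (Pcdhb2, Pcdhb6, Pcdhb11 and Pcdhb12) and 0 higher, with a median of -0.14. These make 18.2% of the cluster, where 12.4% of all genes tested were called lower and 25.4% in either direction. In 9 of the 22 all SufuKO arrays lay below all wildtype arrays, where 19.6% of all genes tested did. In Ptch1KO against SufuKO 5 were called lower (Pcdhb7, Pcdhb13, Pcdhb15, Pcdhb16 and Pcdhb17) and 0 higher, 22.7% of the cluster, where 17.5% of all genes tested were called lower and 29.7% in either direction. In the last 2 comparisons the share called thus lay near that of all genes, between their share called lower and their share called in either direction. The genes are similar in sequence and lie side by side on chromosome 18, so they are not independent of each other, and cross-hybridisation between them was not tested.

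The mean over the 22 beta genes was 6.75, 6.90 and 6.93 on the Ptch1KO arrays, 6.98, 7.01 and 7.05 on the SufuKO arrays and 7.21, 7.10 and 7.16 on the wildtype arrays. The 3 groups did not overlap, and SufuKO lay between the tumours and wildtype. Pcdhb2 and Pcdhb12 had the largest decreases of the cluster in the tumours. Pcdhb2 read 6.58, 6.76 and 6.84 in the Ptch1KO tumours, 6.82, 7.13 and 6.90 in SufuKO cerebella and 7.47, 7.12 and 7.27 in wildtype cerebella. Tumours lay below wildtype, and SufuKO overlapped wildtype. It differed by -0.56 ± 0.11 in Ptch1KO (adjusted p = 0.000846) and by -0.34 ± 0.11 in SufuKO (adjusted p = 0.0368) against wildtype. Pcdhb12 read 5.84, 6.26 and 6.08 in the Ptch1KO tumours, 6.19, 6.16 and 6.31 in SufuKO cerebella and 6.57, 6.51 and 6.79 in wildtype cerebella. Both mutants lay below wildtype, by -0.56 ± 0.11 in Ptch1KO (adjusted p = 0.000781) and -0.40 ± 0.11 in SufuKO (adjusted p = 0.0148). Pcdhb6 read 7.19, 7.52 and 7.70 in the Ptch1KO tumours, 7.41, 7.33 and 7.65 in SufuKO cerebella and 8.17, 7.82 and 7.72 in wildtype cerebella, also with both mutants below wildtype. It differed by -0.43 ± 0.14 in Ptch1KO (adjusted p = 0.0242) and -0.44 ± 0.14 in SufuKO (adjusted p = 0.0393). Pcdhb13 read 6.37, 6.34 and 6.58 in the Ptch1KO tumours, 6.63, 6.68 and 6.63 in SufuKO cerebella and 6.86, 6.83 and 6.86 in wildtype cerebella. There the 3 groups did not overlap, and the difference was -0.42 ± 0.07 in Ptch1KO against wildtype (adjusted p = 0.000403). The group means of 16 beta genes followed the order of the cluster's mean, and those of Pcdhb1, Pcdhb5, Pcdhb6, Pcdhb7, Pcdhb16 and Pcdhb21 did not. For Pcdhb7 and Pcdhb16, SufuKO averaged 7.67 ± 0.21 and 8.04 ± 0.09 against 7.57 ± 0.07 and 7.90 ± 0.22 in wildtype (SD), differences that were not called.

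All 4 SufuKO calls of beta genes were lost with a covariate for high Xist (adjusted p up to 0.185), and each was also lost on leaving out single arrays, namely wildtype replicate 1 for Pcdhb2, Pcdhb6 and Pcdhb11, 2 for Pcdhb6, 3 for Pcdhb2, Pcdhb11 and Pcdhb12, SufuKO replicate 1 for Pcdhb2, Pcdhb6 and Pcdhb11, 2 for Pcdhb6, Pcdhb11 and Pcdhb12, 3 for Pcdhb2 and Pcdhb11, and Ptch1KO replicate 2 for Pcdhb6 and Pcdhb11. In Ptch1KO against wildtype, Pcdhb3, Pcdhb6, Pcdhb7, Pcdhb18, Pcdhb19 and Pcdhb20 lost their calls with that covariate and on leaving out at least 1 array (adjusted p up to 0.322), whereas the other 10 kept them wherever they were tested. The arrays concerned were wildtype replicate 1 for Pcdhb3, Pcdhb6, Pcdhb7, Pcdhb18 and Pcdhb20, wildtype replicate 2 for Pcdhb18, wildtype replicate 3 for Pcdhb7, Pcdhb19 and Pcdhb20, Ptch1KO replicate 1 for those 6 without Pcdhb19, Ptch1KO replicate 2 for Pcdhb7, Pcdhb18 and Pcdhb20, and Ptch1KO replicate 3 for Pcdhb7. Of the 5 calls in Ptch1KO against SufuKO only that of Pcdhb7 was kept without each array in turn, and the other 4 lost theirs on leaving out at least 1 array of either mutant (adjusted p up to 0.164). The call of Pcdhb13 was also lost without each wildtype array (adjusted p up to 0.0578), with an intensity trend and robust prior (0.0568) and with only the 6 arrays compared (0.0803), and that of Pcdhb17 without wildtype replicate 1 (0.0509) and with only the 6 arrays (0.0713). The 6 beta genes not called in the tumours were Pcdhb1, Pcdhb4, Pcdhb5, Pcdhb9, Pcdhb16 and Pcdhb21, whose differences lay between -0.24 and 0.12.

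**Figure D3:**
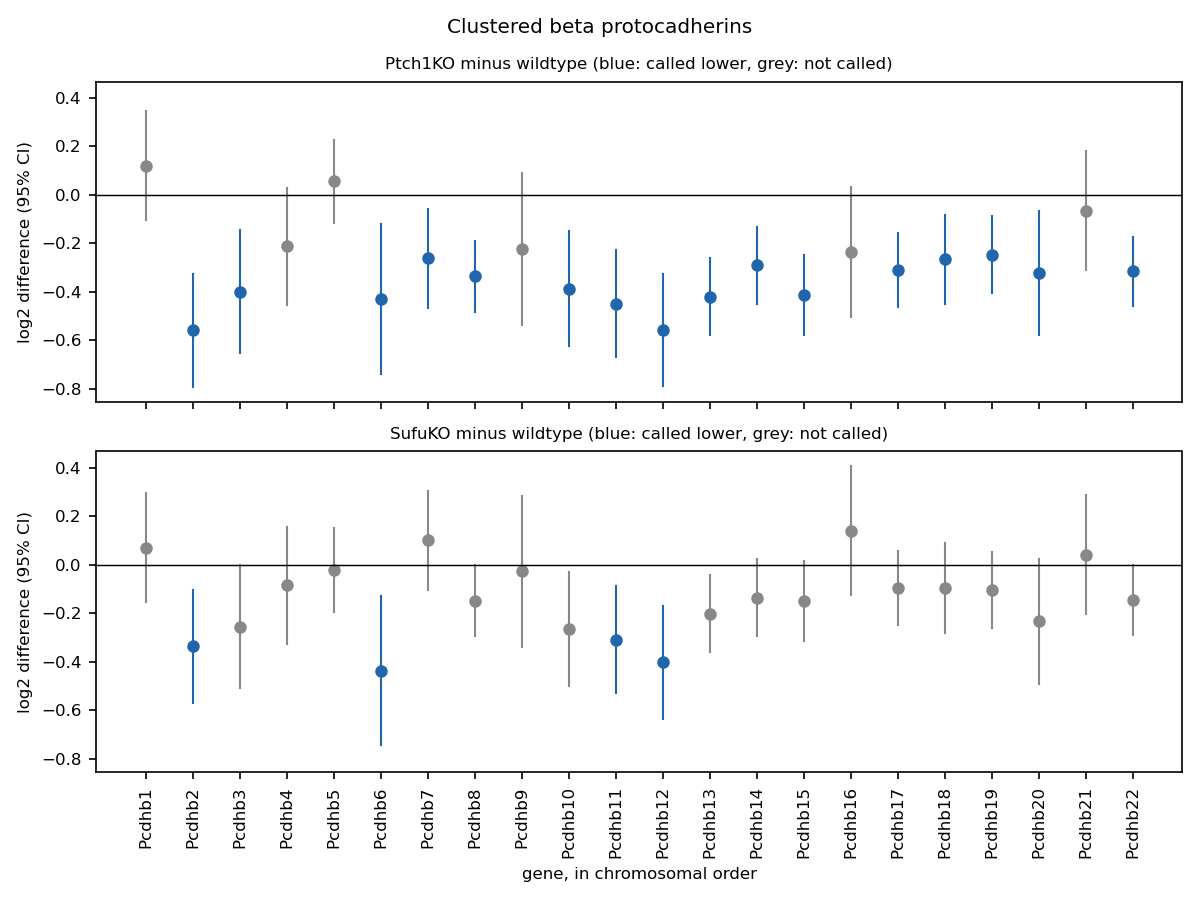
Log2 difference with its 95% confidence interval (y axis) of the 22 clustered beta protocadherins in chromosomal order (x axis), for Ptch1KO minus wildtype above and SufuKO minus wildtype below. Blue genes were called lower and grey genes were not called. Called genes are spread from Pcdhb2 to Pcdhb22 in Ptch1KO, with 0 of 22 called higher in either comparison.

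The alpha cluster was read through 1 probe set that names 14 Pcdha symbols, so its level cannot be assigned to one of them. It read 6.90, 6.81 and 6.90 in the Ptch1KO tumours, 7.44, 7.38 and 7.52 in SufuKO cerebella and 7.45, 7.41 and 7.47 in wildtype cerebella. The tumours lay below all cerebella, and SufuKO and wildtype overlapped. In the same model over 35556 probe sets it differed by -0.57 ± 0.06 (SE) in Ptch1KO against wildtype (adjusted p = 8.80e-05), by -0.58 ± 0.06 in Ptch1KO against SufuKO (adjusted p = 0.000574) and by 0.00 ± 0.06 in SufuKO against wildtype (adjusted p = 0.986). The alpha means of SufuKO and wildtype thus differed by less than the SE, whereas the mean of the beta genes was lower on every SufuKO array than on every wildtype array, a contrast between the clusters that was not tested.

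**Figure D4:**
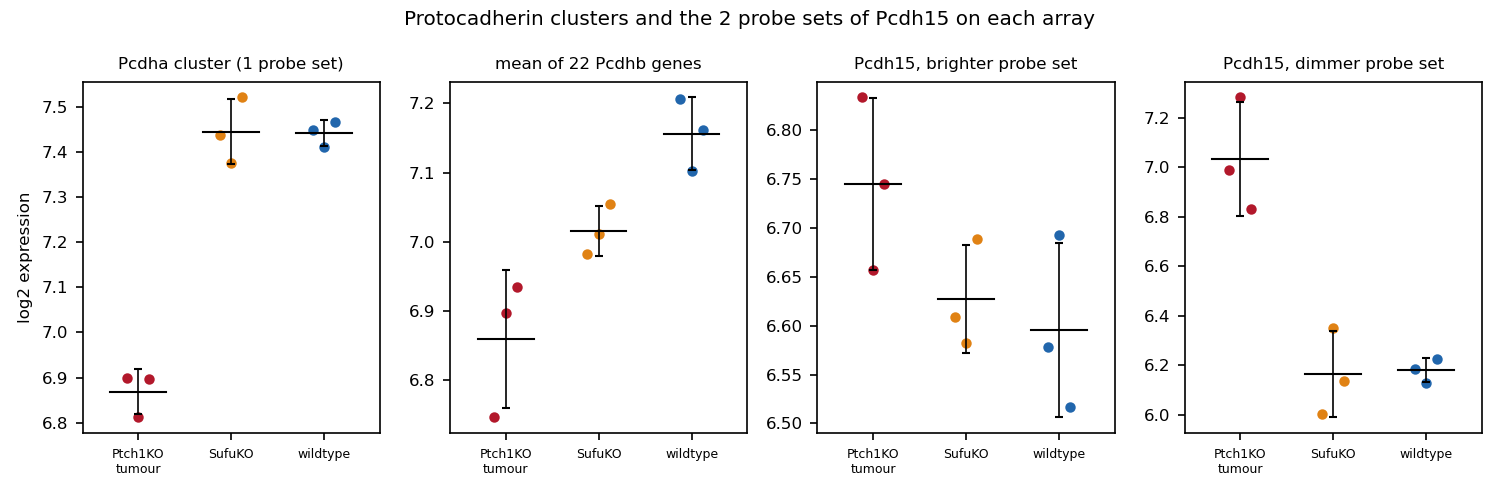
Log2 expression (y axis) of the alpha cluster's shared probe set, of the mean over 22 beta genes and of the brighter and dimmer probe sets of Pcdh15, with 1 point per array, the group mean as a line and bars of 1 SD (n = 3). Each panel has its own range. The beta mean has SufuKO between the tumours and wildtype, the alpha probe set has SufuKO overlapping wildtype, and only the dimmer Pcdh15 probe set separates the tumours.

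Regulators of the protocadherin clusters were read from a list of 12 genes for CTCF, cohesin and chromatin factors that act on promoter choice. In the tumours 11 were called higher and 1, Wiz, lower (-0.30 ± 0.08, limma adjusted p = 0.00635) against wildtype. In SufuKO 5 were called higher and 0 lower. Of all genes tested, 22.1% were called higher and 24.7% lower in Ptch1KO, and 13% and 12.4% in SufuKO. Ctcf, which binds the cluster promoters, differed by 0.58 ± 0.07 in Ptch1KO (adjusted p = 2.27e-05) and by 0.29 ± 0.07 in SufuKO (adjusted p = 0.00987) against wildtype. The cohesin subunits Rad21 and Smc1a differed by 0.75 ± 0.09 and 0.68 ± 0.07 in Ptch1KO (adjusted p = 1.5e-05 and 7.55e-06). Smchd1, a repressor of the clusters, differed by 0.75 ± 0.10 in Ptch1KO (adjusted p = 5.18e-05) and 0.37 ± 0.10 in SufuKO (adjusted p = 0.0172). Cohesin also serves cell division, and the summed level of the granule neuron progenitor markers, several of them proliferation genes, was 6570 to 8600 in Ptch1KO tumours, 4540 to 4710 in SufuKO cerebella and 1190 to 1430 in wildtype cerebella on the linear scale. Its part in these differences was not tested.

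The catenins, which join classical cadherins to the cytoskeleton, were all called in the tumours against wildtype, 4 of 9 higher and 5 lower. In that comparison 46.8% of all genes tested were called, 22.1% higher and 24.7% lower. The share called was 25.4% in SufuKO against wildtype. Higher were Ctnnd1 (0.65 ± 0.07), the p120 catenin that stabilises cadherins at the membrane, Ctnna1 (0.52 ± 0.08) and Ctnna2 (0.45 ± 0.06), which link to actin, and Ctnnb1 (0.34 ± 0.08), the beta catenin. Lower were Pkp4 (-0.89 ± 0.07), Jup (-0.83 ± 0.09), the plakoglobin of desmosomes, Ctnna3 (-0.47 ± 0.06), Ctnnd2 (-0.30 ± 0.06) and Arvcf (-0.29 ± 0.07), with adjusted p of the 9 between 7.45e-07 and 0.00341. In SufuKO against wildtype 2 were called higher, Ctnna2 (0.56 ± 0.06, adjusted p = 8.59e-05) and Ctnnd1 (0.28 ± 0.07, adjusted p = 0.0144), and 3 lower, Ctnna3 (-0.38 ± 0.06), Pkp4 (-0.30 ± 0.07) and Jup (-0.39 ± 0.09).

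The large cadherins of the Fat, Dachsous and flamingo families, which take part in planar polarity, moved both ways. Among 9 genes, which include the kinase gene Fjx1, 3 were called higher and 5 lower in Ptch1KO against wildtype. In SufuKO against wildtype 3 were called higher and 4 lower. Over all genes tested 46.8% were called in Ptch1KO and 25.4% in SufuKO. Dchs1, the ligand of Fat4, was higher in Ptch1KO (1.09 ± 0.09, adjusted p = 6.68e-07) and in SufuKO (0.80 ± 0.09, adjusted p = 4.85e-05). Fat1 was lower in both, by -0.89 ± 0.07 in Ptch1KO (adjusted p = 7.54e-07) and -0.47 ± 0.07 in SufuKO (adjusted p = 0.000545), and so was Fjx1 (-0.94 and -0.70). Fat2, a cadherin of granule cells, was lower in Ptch1KO against wildtype (-1.11 ± 0.15, adjusted p = 4.02e-05) and against SufuKO (-0.87 ± 0.15, adjusted p = 0.000743), and Fat3 was lowest in SufuKO, at -1.17 ± 0.13 against wildtype (adjusted p = 4.52e-05). A list of 9 genes held the calsyntenins, which are synaptic cadherins, and desmosomal cadherins. Only its 3 calsyntenins were tested, so it gives no result for desmosomal cadherins. All 3 were called lower in the tumours against wildtype. They were Clstn3 (-1.61 ± 0.10, limma adjusted p = 9.46e-08), Clstn2 (-1.31 ± 0.10, adjusted p = 5.18e-07) and Clstn1 (-0.33 ± 0.06, adjusted p = 0.00087). In SufuKO Clstn2 (-0.70 ± 0.10) and Clstn3 (-0.61 ± 0.10) were called lower. Of 5 tested proteases that cut cadherins, Mmp14, a metalloprotease of the cell surface, was higher in the tumours against wildtype (0.82 ± 0.11, adjusted p = 3.92e-05) and against SufuKO (0.82 ± 0.11, adjusted p = 0.000132). Lower in the tumours against wildtype were Psen2 (-0.39) and Furin (-0.38), and lower against SufuKO were Psen2 (-0.24, adjusted p = 0.0335) and Adam10 (-0.24, adjusted p = 0.0456).

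The tumour arrays were not alike, in the family as in all called genes. Replicate 3 lay nearest to the wildtype mean for 24 of the 35 members called in Ptch1KO against wildtype (68.6%). It did so for 68.3% of all 7644 genes called in that comparison, so this was not particular to the family. The calls of Pcdh18, Cdh20, Cdh22, Cdh12, Cdh18, Cdh7, Pcdh9, Cdh8 and Cdh6 in Ptch1KO against wildtype and against SufuKO passed without each array in turn, with differences against wildtype between 1.40 and 1.67 for Pcdh18, 1.31 and 1.57 for Cdh20, -1.32 and -1.20 for Cdh22 and -1.19 and -0.91 for Cdh7. Of all calls, 23 of 35 in Ptch1KO against wildtype, 5 of 16 in SufuKO against wildtype and 11 of 18 in Ptch1KO against SufuKO passed in every alternative in which the gene was tested. The count of members called lower in SufuKO against wildtype was 7 in place of 12 without wildtype replicate 1, without SufuKO replicate 2 and with a covariate for high Xist. The counts in Ptch1KO against SufuKO were 3 higher in place of 5 without Ptch1KO replicate 2 and 8 lower in place of 13 without Ptch1KO replicate 1. Of the differences that were not called, 17 passed in at least 1 alternative. Besides those given above, they were Cdh2, Pcdh15, Pcdhb8, Pcdhb18 and Pcdhb22 in Ptch1KO against SufuKO, Pcdh15 and Pcdhb16 in Ptch1KO against wildtype, and Cdh5, Pcdh11x, Pcdhb10 and Pcdhb13 in SufuKO against wildtype. Pcdh15 did so only with the mean of its probe sets, at 0.50 against wildtype (adjusted p = 7.47e-05) and 0.49 against SufuKO (adjusted p = 0.00025).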

How the data were processed

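Gene expression was measured in 9 samples of mouse at postnatal day 13, 3 per group. Each sample's title gave its group and replicate number. The authors deposited log2 expression values, 1 per probe set and array. The scale was read from the values, whose medians lay between 6.72 and 6.79. How the background was corrected and the arrays were normalized and summarised is not stated in the labels, and the values carry no detection calls, so the number of arrays limits precision and differences of dim genes may be understated.

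Of 35556 probe sets 21789 had 1 gene symbol in the supplied annotation, 1621 had several and 12146 were not listed. Symbols were checked by gene identifier against a RefSeq table of assembly GRCm38.p6, where 21698 matched. The 62 members had 66 single-gene probe sets, and 4 members had 2. The 16323 genes that exceeded the 25th percentile of the array on 3 arrays or more were fitted with limma 3.58.1 in R 4.3.3, with 1 mean per group over all 9 arrays and moderated variances. Benjamini-Hochberg adjustment of the 2-sided p-values ran over all genes tested in a comparison, with a threshold of 0.05. Errors are the moderated standard error (SE) of a difference and the SD of 3 arrays. Summed levels of marker lists add linear values, taken as 2 to the power of the log2 value.

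Full statistics went to the 6 highest and 6 lowest differences among called members whose groups did not overlap, in each comparison. Of partner lists the 3 smallest p per comparison were named, or all called where 5 or fewer were called, and further genes were named after their values were seen. The members and lists were chosen with earlier results of these data known. Tested on simulated data for Ptch1KO against wildtype over 16323 genes, the fit recovered 78% of 100 genes changed by 0.5 log2 units. It recovered 98% of 100 changed by 1, and the run gave 8 false calls. The simulated noise was normal and independent between genes, with the same SD in each group. Only 200 genes were changed, where 46.8% were called in the data, so these figures need not hold for the measured arrays. Alternatives were other filters, quantile normalization, the mean of a gene's probe sets, an intensity trend with a robust prior, only the 6 arrays compared, a covariate for high Xist, a replicate block and leaving out each array. List genes without a single-gene probe set were not analysed here.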

Additional observations from a re-analysis of the deposited data

How the results depend on the processing

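For members called higher, the counts under the alternatives that kept all 9 arrays or the 6 arrays compared stayed within 1.5 times the reported ones in all 3 comparisons, and so did those called lower, except that 7 members in place of 12 were called lower in SufuKO against wildtype with a covariate for high Xist. The cause was not tested, and the covariate takes up part of the difference between the groups, since all wildtype arrays had high Xist. Leaving out each array in turn gave 4 to 7 members higher and 23 to 30 lower in Ptch1KO against wildtype, 3 to 5 higher and 8 to 15 lower in Ptch1KO against SufuKO, and 3 to 4 higher and 7 to 15 lower in SufuKO against wildtype. The probe set of the alpha cluster kept its calls in the tumours, between -0.59 and -0.54 against wildtype and between -0.61 and -0.54 against SufuKO. Its difference of 0.00 in SufuKO against wildtype changed sign to -0.011 with quantile normalization and ran from -0.034 to 0.038 over the left-out arrays. Among the named members 895 of the recomputed differences kept direction and side of the threshold, 42 lost a call, 13 gained one and 7 changed sign, all 7 of them without a call. The 7 arose on leaving out 1 array and concern Cdh6 in SufuKO against wildtype (-0.037 to 0.089 over the left-out arrays), Cdh24 in Ptch1KO against SufuKO (-0.074 to 0.060) and Pcdhb6 in Ptch1KO against SufuKO (-0.105 to 0.147).

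Samples of different groups share replicate numbers. Their deviations from the group means correlated between -0.31 and 0.35 across genes for equal numbers and between -0.35 and 0.40 for different numbers, so the numbers were not taken to pair samples. With the replicate number as a block, 5 members were higher and 29 lower in Ptch1KO against wildtype, 5 higher and 12 lower in Ptch1KO against SufuKO, and 4 higher and 10 lower in SufuKO against wildtype. The calls lost under the block were those of Cdh15 in Ptch1KO against wildtype (adjusted p = 0.0558), Pcdhb13 in Ptch1KO against SufuKO (0.0544), and Pcdhb2 (0.0613) and Pcdhb6 (0.0578) in SufuKO against wildtype. The alpha probe set then differed by -0.57 (adjusted p = 0.000395), -0.58 (adjusted p = 0.00209) and 0.00 in the same comparisons.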
